A study of Homo sapiens with 9 samples.

Results

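The 52 genes described here encode the machinery of mitosis: the kinases and cyclins that start it, the spindle checkpoint, the kinetochores, the kinesins and other spindle proteins, and the proteins of cytokinesis and chromosome condensation. They were taken by gene symbol from a table of 59609 genes, by function and not by a threshold on their values, and 52 of 52 passed the low-count filter that left 16964 genes for testing. The cells were of 1 established line, SUIT2, from a human pancreatic cancer, so each group models that line alone. They were seeded at 500000 per well, given 24 h, and then received fresh medium with human interferon beta, a type I interferon, at 100 U/mL for 6 h or for 24 h. The third group is labelled control treated; its labels carry the same protocol text and no duration or vehicle, so at each time the effect of interferon beta and that of time in culture cannot be told apart. Each group had 3 libraries of total RNA.

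Mitotic genes are transcribed in waves: most are repressed in resting and early cycling cells by the DREAM complex, which binds the CHR element of their promoters through the MuvB core, and are activated late in the cycle when MuvB joins the transcription factors MYBL2 and FOXM1, often with NF-Y bound at CCAAT boxes. CDK1 with cyclin B then drives entry into mitosis, the spindle checkpoint holds cells until kinetochores are attached, and CDC20 with the anaphase-promoting complex releases them. Because the transcripts peak in G2 and M, their level in a culture depends both on how many cells are in those phases and on how much RNA each such cell holds, and in these bulk libraries fewer such cells and less RNA per cell cannot be told apart.

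The total of estimated counts ranged from 15101734 to 19632741 among control libraries, from 16799278 to 37420457 among 6 h libraries and from 25270387 to 40384407 among 24 h libraries, the last being the deepest on average. The smallest estimated count of any member in any library was 233, and the median coefficient of variation of the members over replicates was 1.94% in control, 3.01% at 6 h and 2.06% at 24 h. Nothing in the labels states that replicates came from separate cultures, and p-values therefore reflect the spread between these libraries alone, which may be technical. As a check of the treatment labels, 18 of 18 interferon-induced genes were higher at 6 h and 18 of 18 at 24 h, with median log2 fold changes of 5.78 and 4.15. Ductal epithelial markers summed to 5060 to 5130 CPM in control (read counts scaled to a common library size with TMM factors), to 5700 to 6010 CPM at 6 h and to 5610 to 5740 CPM at 24 h, so the treated libraries lay above control. Of the 10 ductal markers, 6 were higher and 4 lower at 6 h, and 8 were higher and 1 lower at 24 h. The 8 leukocyte markers summed to 0.326 to 0.48 CPM in control, 0.389 to 0.436 CPM at 6 h and 0.906 to 1.0 CPM at 24 h, with PTPRC, CD3D, CD3E and MS4A1 at 0 in all libraries. Of the 13 transcripts of the mitochondrial genome, 13 were higher at 6 h (median log2 fold change 0.16), and 4 were higher and 7 lower at 24 h (median -0.095), while their share of the counts was 8.15% to 8.73% in the 9 libraries. The part of the ductal and mitochondrial changes in the members' changes was not tested.

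With TMM scaling, the members as a group stood at the control level after 6 h and well below it after 24 h. Their summed level was 10250 to 10390 CPM in the 3 control libraries, 10110 to 10660 CPM at 6 h and 7186 to 7262 CPM at 24 h. The 24 h libraries lay apart from the other 6, and their mean was 30.2% below the control mean, while the 6 h mean was 99.9% of it. As a share of all counts, without TMM factors, the members made up 1.04% to 1.06% in control and 0.933% to 0.98% at 6 h. At 24 h that share was 0.768% to 0.78%, so on this scale the 6 h libraries also lay below control. By edgeR's quasi-likelihood test at a Benjamini-Hochberg adjusted p under 0.05, 49 of 52 members were lower at 24 h than in control, 0 were higher and 3 did not pass. Of all tested genes, 50% passed at 24 h, 25.3% lower and 24.7% higher. At an unadjusted p under 0.05, 50 members passed, and DESeq2 and limma-voom also called 0 members higher. The 24 h and control libraries did not overlap in 50 members, as in 60% of all tested genes. The members' median log2 fold change was -0.47, against 0.0048 for all tested genes. Of the 49, 17 were at least 1.5-fold lower, as were 5.02% of all tested genes (9.51% were at least 1.5-fold higher), and 4 were at least 2-fold lower, namely KIF20A, CDC25B, PLK1 and CDC20. The other 32 were lower by less than 1.5-fold.

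At 6 h the picture differed, with 6 members higher, 11 members lower and 35 that did not pass. Together 32.7% of the members passed, where 32.9% of all tested genes did, 17.5% higher and 15.4% lower, so the share that changed at 6 h was near the background. The median log2 fold change was -0.036, against -0.0053 for all tested genes, and no member changed by as much as 1.5-fold, while 5.98% of all tested genes were higher and 2.84% lower by at least that much. The 6 h and control libraries did not overlap in 25 members, against 42.1% of all tested genes. Leaving out 1 library gave 5 to 7 members higher and 5 to 12 lower, with 5 lower without control replicate 3. When the 24 h libraries were set against the 6 h libraries, 47 members were lower, 0 were higher (47 passed at an unadjusted p under 0.05, and DESeq2 and limma-voom called 0 higher) and 5 did not pass. Of all tested genes 57.2% passed between the times, 30.6% lower and 26.6% higher, and the members' median was -0.44 against -0.019. In 47 members the 2 groups did not overlap, against 62.2% of all tested genes, and 14 members were at least 1.5-fold lower, against 8.31%. The comparisons share libraries: both treated groups are set against the same controls. A gene's values in the 3 groups are therefore given side by side below.

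These counts depend on how libraries are scaled. In the authors' deposited normalized table the median of all tested genes was itself higher at 24 h, by 0.37 on the log2 scale, and only 6 members were lower there and 2 higher. With each library of that table centred on its own median, an alternative chosen after seeing the data, 50 were lower and 0 higher. Relative to the median of all tested genes, the members' median at 24 h was lower by -0.398 to -0.483 over the 22 settings run, with 50 to 52 of 52 members below it. Taking that median away removes any shift common to all genes, so this range cannot test whether the scaling matters. At 6 h, scaling by library size only gave 2 members higher and 39 lower, with the median of all tested genes at -0.14, so the 6 to 11 split at 6 h holds for TMM scaling, and all directions below are relative to it.

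**Figure D1:**
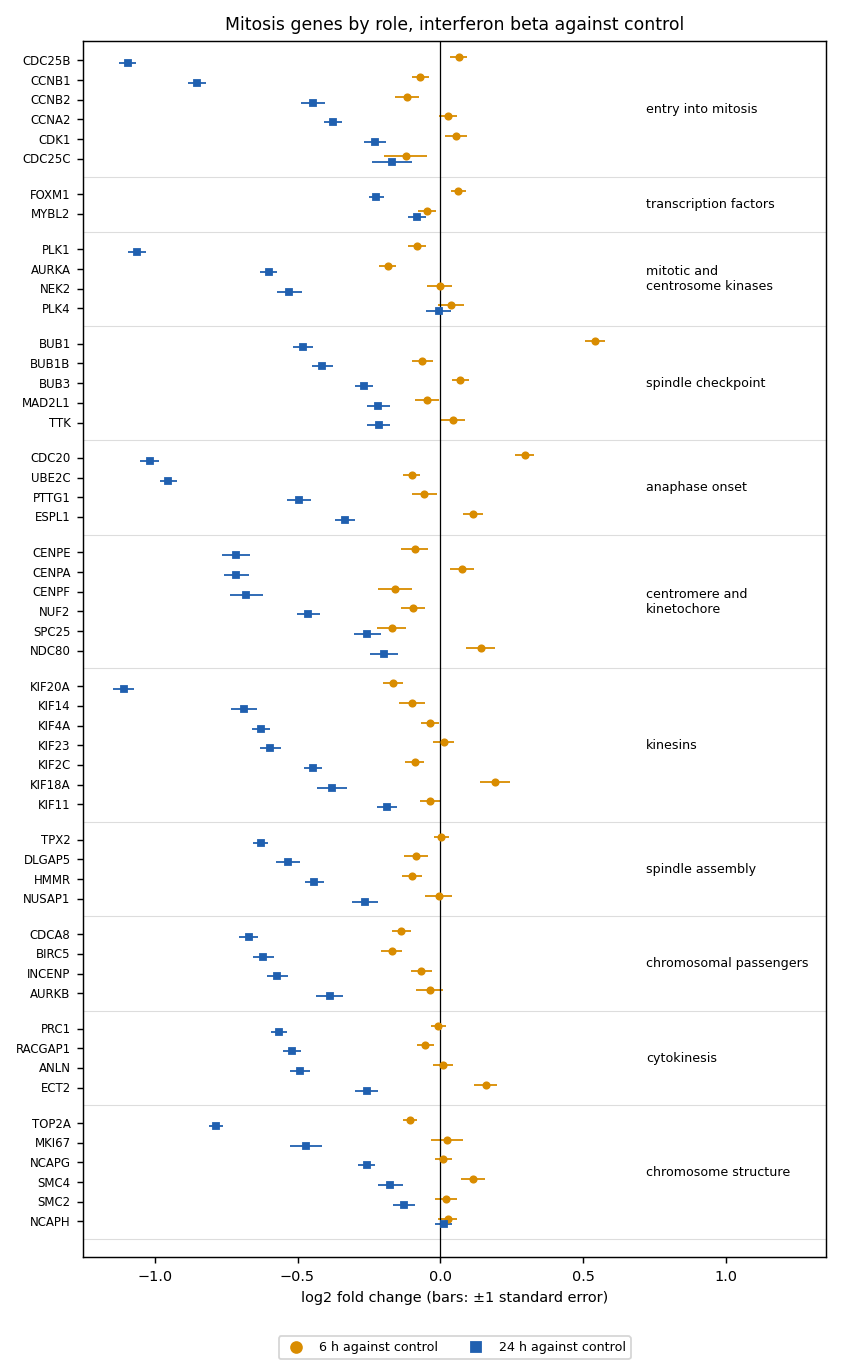
Log2 fold change of each of the 52 members at 6 h (circles) and 24 h (squares) against control, grouped by role, with bars of 1 standard error from edgeR; both use the same 3 control libraries. The 24 h values run from -1.11 for KIF20A to 0.011 for NCAPH, and the 6 h values from -0.18 for AURKA to 0.54 for BUB1.

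Since most members fell together at 24 h, their promoters were read from RefSeq windows of 250 bases before to 50 after the start (GRCh38.p14), which held 44 of the 52 genes. The stretches below are the 150 bases directly before the RefSeq start of 5 of them, chosen to set 3 genes that fell and hold CHR letters beside the member with the most negative fold change, KIF20A, and a member that did not pass, NCAPH. They are given 5′ to 3′ on the gene's strand, with the letters of the CHR element (TTTGAA or TTCGAA) and of the CCAAT box in capitals, read on either strand. PLK1 is at chr16:23678739-23678888, CDC20 at chr1:43358831-43358980, CCNB2 at chr15:59104996-59105145, KIF20A at chr5:138178962-138179111 and NCAPH at chr2:96335616-96335765, each on the plus strand. The RefSeq start differs from the gene start of the deposited table for some genes: the PLK1 and KIF20A stretches lie inside the deposited gene spans, and the end of the CCNB2 stretch does.
PLK1: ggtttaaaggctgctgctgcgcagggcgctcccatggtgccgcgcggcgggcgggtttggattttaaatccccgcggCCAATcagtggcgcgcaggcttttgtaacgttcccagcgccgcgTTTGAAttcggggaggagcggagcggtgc
CDC20: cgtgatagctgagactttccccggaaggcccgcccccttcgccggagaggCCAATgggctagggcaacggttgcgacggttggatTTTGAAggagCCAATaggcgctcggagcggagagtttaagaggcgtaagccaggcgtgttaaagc
CCNB2: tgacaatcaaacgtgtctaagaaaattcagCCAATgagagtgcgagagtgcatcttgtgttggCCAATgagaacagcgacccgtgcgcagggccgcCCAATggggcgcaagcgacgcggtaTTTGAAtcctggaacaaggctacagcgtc
KIF20A: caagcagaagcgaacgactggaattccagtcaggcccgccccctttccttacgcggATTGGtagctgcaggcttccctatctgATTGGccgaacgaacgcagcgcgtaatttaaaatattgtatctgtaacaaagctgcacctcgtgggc
NCAPH: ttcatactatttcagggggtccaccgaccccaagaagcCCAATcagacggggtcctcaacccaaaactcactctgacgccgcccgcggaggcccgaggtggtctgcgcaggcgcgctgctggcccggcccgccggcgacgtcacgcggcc
In PLK1 and CCNB2 the CHR letters lie near the start, downstream of the CCAAT letters, and in CDC20 they lie between a pair of CCAAT boxes. The KIF20A stretch holds CCAAT letters on the other strand and no CHR letters, and the NCAPH stretch holds CCAAT letters and no CHR letters. No match says only that these letters are not in this window.

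Over the whole windows, CHR letters were found in 32 of 44 members (72.7%), against 11.1% of the promoters of tested genes (1179 of 10630) and 16.6% of all promoters in the table. Of 94 windows of other mitosis genes, the wider mitosis lists described below, 41 held them (43.6%). In the span from 60 bases before the start to 50 after it, chosen after the files were seen, 28 of 44 members held CHR letters (63.6%). In that span they were found in 31.9% of the wider mitosis lists and in 3.36% of the promoters of tested genes. CCAAT letters were found in 31 of 44 members (70.5%), against 36.9% of the promoters of tested genes. They were also found in 17 of 29 of a DNA replication list (58.6%) and 52 of 94 of the wider mitosis lists (55.3%). Letters of the E2F site (TTTGGCGC, TTTCCCGC, TTTGCCGC or TTTCGCGC), the element of many replication genes, were found in 3 of 44 members (6.82%), against 5.5% of the promoters of tested genes and 16 of 29 of the DNA replication list (55.2%). Letters of the interferon-stimulated response element (GAAANNGAA) were found in 4 of 44 members, ESPL1, HMMR, MKI67 and SMC4 (9.09%), against 6.59% of the promoters of tested genes and 9 of 12 of the interferon-induced genes (75%). All motifs were read on both strands, and a match is a description of the letters, not a bound site. Letters of different motifs can overlap, as TTTGAA can with the first GAA of the response element. The CHR letters did not sort the members by the size of their change at 24 h: the median log2 fold change was -0.45 in the 32 with them and -0.47 in the 12 without. For CCAAT letters the medians were -0.49 in 31 and -0.26 in 13, given as a description with no test.

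**Figure D2:**
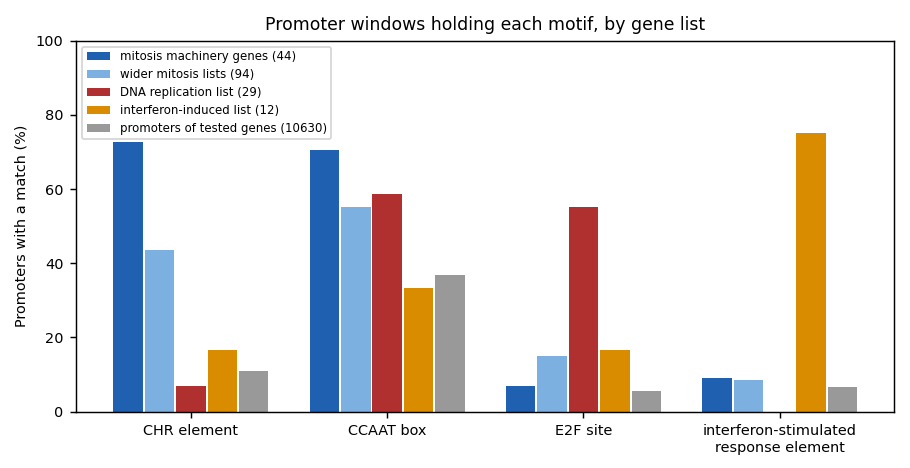
Percent of RefSeq promoter windows that hold the letters of each of 4 motifs, for the mitosis machinery genes (44 windows), the wider mitosis lists (94), a DNA replication list (29), the interferon-induced list (12) and all tested genes (10630). The members have the tallest bar for the CHR element (72.7%) and for CCAAT (70.5%), the replication list for the E2F site (55.2%) and the interferon-induced list for the response element (75%).

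Among the 6 members that start mitosis, 5 were lower at 24 h, but not equally. CDC25B, the phosphatase that removes the inhibitory phosphate from CDK1 at mitotic entry (chromosome 20, 3786772 to 3806122 in the deposited hg38 coordinates), stood at 238, 236 and 239.7 CPM in control, at 256, 247 and 244 CPM at 6 h, and at 111, 111 and 112 CPM at 24 h. All 3 libraries at 24 h were below the other 6, and the log2 fold change against control was -1.09 (SE 0.030, edgeR adjusted p 1.09e-13). CCNB1, cyclin B1, the main partner of CDK1 (chromosome 5, 69167135 to 69178246), stood at 331, 322 and 325 CPM in control, 309.7, 312 and 311 CPM at 6 h, and 176, 178 and 189 CPM at 24 h. Its log2 fold change at 24 h was -0.85 (SE 0.031, edgeR adjusted p 5.08e-12), while at 6 h the value of -0.070 did not pass. CCNB2, the second B-type cyclin, fell less, by 0.45 (SE 0.042). CDK1 itself, the kinase of which these cyclins are subunits, was 190.3, 193 and 181 CPM in control and 161, 163 and 158 CPM at 24 h. That is a fall by 0.23 on the log2 scale (SE 0.038, edgeR adjusted p 1.28e-04), with no overlap between the groups. CCNA2, cyclin A2, lay between them at -0.38 (SE 0.031). CDC25C, another CDK1 phosphatase and the least abundant member, did not pass at 24 h: its log2 fold change was -0.17 with a 95% interval of -0.343 to 0.00281 (edgeR adjusted p 0.0581). The interval rests on 6 degrees of freedom, fewer than the test uses, and so is wider than the test. The 24 h libraries of CDC25C, at 13.8, 13.1 and 14.85 CPM, did not overlap its control libraries, at 15.3, 16.5 and 15.2 CPM. Its gene overlaps FAM53C on the other strand, which stood at 376% of its level, and whether counting used strand was not stated, so reads of such pairs cannot be told apart. CDC25C passed when 6 h replicate 2 or 24 h replicate 3 was left out, with log2 fold changes of -0.218 to -0.129 over all left-out libraries, when only the 2 groups were fitted, and in the centred deposited table.

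**Figure D3:**
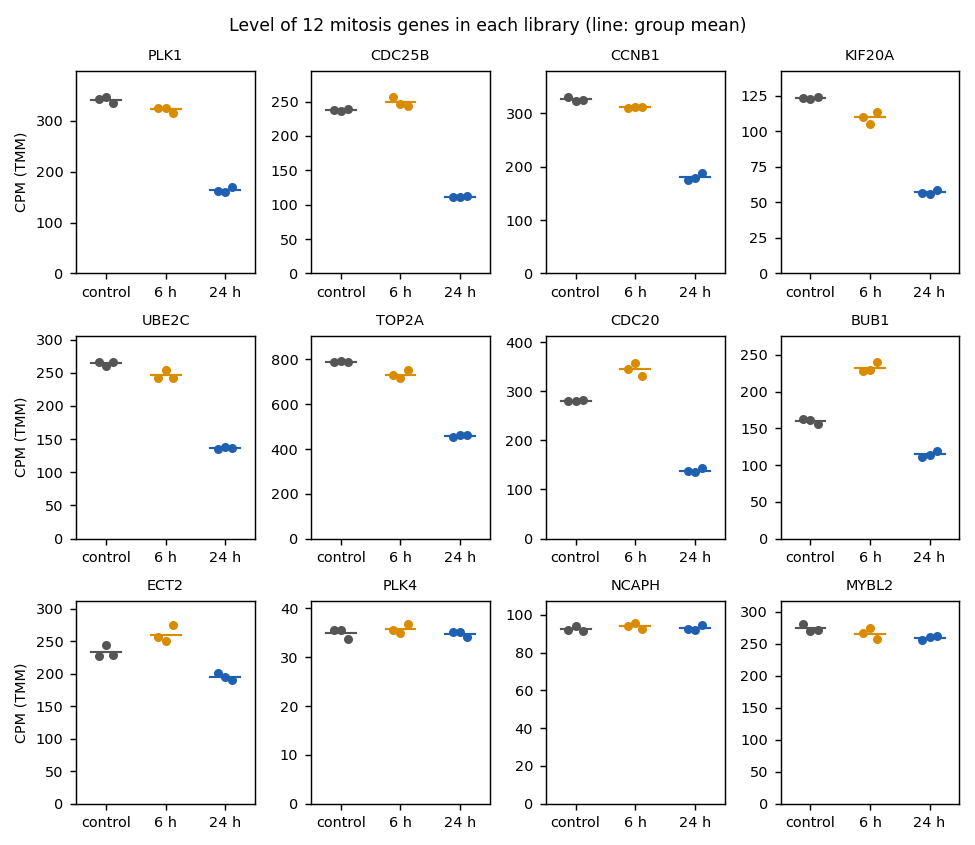
Level of 12 members in each of the 9 libraries, in TMM-scaled CPM on axes that start at 0, with a line at each group mean (n = 3). PLK1, CDC25B, CCNB1, KIF20A, UBE2C and TOP2A were lowest in the 3 libraries at 24 h. CDC20, BUB1 and ECT2 were highest at 6 h and lowest at 24 h, and PLK4 and NCAPH stood at like levels in the 3 groups.

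The transcription factors of the late cell cycle moved little. FOXM1 was 417, 419 and 424 CPM in control, 438, 443 and 436 CPM at 6 h, and 359.6, 353 and 366 CPM at 24 h. The 24 h libraries were below all others, by a log2 fold change of -0.22 against control (SE 0.026, edgeR adjusted p 2.79e-06), and the 6 h value of 0.063 did not pass. MYBL2, which joins MuvB at late cell cycle promoters, was 282, 269.8 and 272 CPM in control and 256, 261 and 261 CPM at 24 h. The groups did not overlap, but the log2 fold change was only -0.081 (SE 0.031, edgeR adjusted p 0.0407). MYBL2 was no longer called in 12 of the 18 settings outside the library-size-only and uncentred deposited scalings, which all counts out of 18 below leave out. Over all 21 other settings the MYBL2 result changed in 15, with a value of 0.36 in the deposited table at a pseudocount of 1. Leaving out any 1 control library, any 1 library at 24 h or 6 h replicate 1 ended the call, with log2 fold changes of -0.0922 to -0.0641 over all left-out libraries.

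The mitotic and centrosome kinases diverged. PLK1, the polo-like kinase needed for spindle formation and mitotic exit (chromosome 16, 23677656 to 23690368), stood at 342, 347 and 335 CPM in control, 326, 326 and 317 CPM at 6 h, and 161, 159.7 and 169 CPM at 24 h. At 6 h it did not pass, though its libraries did not overlap control. It stayed uncalled at 6 h in 12 of 18 other settings and was called in the rest, DESeq2 and limma-voom among them. No library at 24 h reached the other groups: PLK1 was 2.09-fold lower, a log2 fold change of -1.06 (SE 0.031, edgeR adjusted p 2.46e-13). PLK4, the related kinase that drives centriole duplication, stood at 35.5, 35.5 and 33.8 CPM in control and 35.3, 35.2 and 34.1 CPM at 24 h. Its groups overlapped, and its log2 fold change of -0.0058 had a 95% interval of -0.111 to 0.0998. AURKA, the kinase that matures centrosomes, was already lower at 6 h: 243, 251 and 244 CPM in control became 211, 221 and 217 CPM and then 161, 160.3 and 165 CPM at 24 h. Its log2 fold changes were -0.18 at 6 h (SE 0.030, edgeR adjusted p 1.82e-04), -0.60 at 24 h (SE 0.030) and -0.42 between the times (SE 0.030). NEK2, which splits centrosomes, did not pass at 6 h (-0.0015, SE 0.044) and fell by 0.53 on the log2 scale at 24 h (SE 0.044).

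All 5 spindle checkpoint genes were lower at 24 h, and 1 of them, BUB1, was the member with the largest change of any kind at 6 h. BUB1, the checkpoint kinase that marks centromeric histone H2A (chromosome 2, 110637528 to 110678064), stood at 162, 162 and 155 CPM in control, rose to 228, 229.6 and 239.8 CPM at 6 h, and stood at 111, 113 and 119 CPM at 24 h. The 3 groups did not overlap in any pair. The rise at 6 h was 1.46-fold, a log2 fold change of 0.54 (SE 0.035, edgeR adjusted p 5.74e-09), followed at 24 h by -0.48 against control (SE 0.035) and -1.02 against 6 h (SE 0.034). Its rise kept its call in 21 of 21 other settings. The related pseudokinase BUB1B, which acts in the same checkpoint and inhibits CDC20, was 103, 108 and 102 CPM in control, 99.7, 97.1 and 103 CPM at 6 h, and 80.2, 77.3 and 77.9 CPM at 24 h. It did not pass at 6 h (-0.063, SE 0.036) and was lower at 24 h (-0.41, SE 0.035). BUB3, MAD2L1 and TTK, an adaptor, the inhibitor of CDC20 and the kinase at the top of the checkpoint, were lower at 24 h by -0.27, -0.22 and -0.22, and their 6 h values of 0.071, -0.046 and 0.044 did not pass.

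The genes that trigger anaphase had the most negative median of the 11 roles at 24 h, -0.72 over 4 genes. CDC20, the activator of the anaphase-promoting complex (chromosome 1, 43358981 to 43363204), whose promoter with its CHR letters is printed above, stood at 280.0, 279.5 and 282 CPM in control, rose to 344, 358 and 332 CPM at 6 h, and stood at 137, 135 and 144 CPM at 24 h. As for BUB1, the groups were apart in every pair. Its log2 fold change was 0.30 at 6 h (SE 0.034, edgeR adjusted p 4.79e-06) and -1.02 at 24 h against control (SE 0.034, edgeR adjusted p 1.64e-12). Against 6 h, CDC20 had the most negative value of the 52 members, -1.31 (SE 0.034). Its rise at 6 h kept its call in 21 of 21 other settings. UBE2C, the ubiquitin-conjugating enzyme that works with the same complex, stood at 266, 260.0 and 266 CPM in control, 242, 255 and 242 CPM at 6 h, and 135, 138 and 137 CPM at 24 h. It was lower at 24 h by a log2 fold change of -0.95 (SE 0.030, edgeR adjusted p 7.62e-13). The small fall of UBE2C at 6 h (-0.10, SE 0.030) was lost in 5 of 18 other settings, among them without control replicate 1, control replicate 3 or 6 h replicate 1, with values of -0.125 to -0.0819 over all left-out libraries. PTTG1, securin, and ESPL1, the separase that it inhibits, were lower at 24 h by -0.49 and -0.33. ESPL1 stood at 99.2, 96.9 and 102 CPM in control, 107, 107 and 109 CPM at 6 h, and 78.2, 77.1 and 81.3 CPM at 24 h. Its rise at 6 h was 0.12 (SE 0.034, edgeR adjusted p 0.0177), and the call was lost without control replicate 1 or 2 (0.101 to 0.142 over all left-out libraries).

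Kinetochore genes ranged widely at 24 h, from -0.72 for CENPE to -0.20 for NDC80, and 6 of 6 were lower. CENPE, a kinesin that moves chromosomes to the spindle equator, was 155, 159.5 and 156 CPM in control and 94.5, 94.4 and 97.8 CPM at 24 h, so that no library at 24 h reached control (-0.72, SE 0.049, edgeR adjusted p 8.23e-09). CENPA, the histone H3 variant that defines the centromere, stood at 37.3, 38.4 and 38.6 CPM in control and 23.8, 22.6 and 23.2 CPM at 24 h, also with no overlap, and its log2 fold change was -0.71 (SE 0.044). Its gene shares its strand and part of its span with SLC35F6, which stood at 229% of its level. CENPF, a large outer kinetochore protein, fell by 0.68 at 24 h (SE 0.059). At 6 h it stood at 265, 254 and 314 CPM, with the third library inside the control range of 299.8 to 327 CPM, and its call at 6 h was lost in 11 of 18 other settings. It held on leaving out 6 h replicate 3 alone of the 9 libraries, and its values ran from -0.26 to -0.0967. NUF2, NDC80 and SPC25 form, with SPC24, the complex that binds microtubules. Their log2 fold changes at 24 h were -0.46, -0.20 and -0.26, and at 6 h NDC80 stood at 0.14 (SE 0.049) and SPC25 at -0.17 (SE 0.051). Both 6 h values passed, NDC80 at an edgeR adjusted p of 0.0402 and SPC25 at 0.0171, but NDC80 was called in 9 of 18 other settings and SPC25 in 12. The NDC80 call was lost without control replicate 2 or 3, 6 h replicate 3 or 24 h replicate 2 (0.0943 to 0.172), and the SPC25 call without control replicate 2 or 3 or 6 h replicate 2 (-0.181 to -0.154).

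Of the 7 kinesins, the motors that slide and depolymerise spindle microtubules, 7 were lower at 24 h. KIF20A, which carries the chromosomal passenger complex to the midzone (chromosome 5, 138178719 to 138187724), stood at 123, 122 and 124 CPM in control, 110.2, 105 and 114 CPM at 6 h, and 56.6, 55.7 and 58.8 CPM at 24 h. The groups were apart in every pair, with log2 fold changes of -0.17 at 6 h (SE 0.036, edgeR adjusted p 0.00203) and -1.11 at 24 h (SE 0.036, edgeR adjusted p 1.13e-12). KIF20A had the most negative value of all members at 24 h. It overlaps BRD8 and CDC23 on the other strand, which stood at 70.1% and 46.8% of its level. KIF14, which acts in cytokinesis, was 79.7, 84.6 and 84.0 CPM in control and 51.4, 51.5 and 51.4 CPM at 24 h (-0.69, SE 0.047). KIF4A and KIF23, motors of the central spindle, stood at -0.63 and -0.59, KIF2C, a microtubule depolymerase, at -0.45, and KIF11, the motor that separates the poles, at only -0.19 (SE 0.035). KIF18A, which limits microtubule length, was higher at 6 h by 0.19 (SE 0.053) and lower at 24 h by -0.38 (SE 0.052). It was 40.05, 41.3 and 39.0 CPM in control, 47.6, 42.5 and 47.3 CPM at 6 h, and 29.6, 31.4 and 31.8 CPM at 24 h, so the groups did not overlap.

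The spindle assembly factors, the chromosomal passengers and the cytokinesis genes were lower at 24 h in 4 of 4 genes each. TPX2, the activator of AURKA on spindle microtubules, stood at 681, 677 and 677 CPM in control, 669, 667 and 702 CPM at 6 h, and 435, 434 and 447 CPM at 24 h. At 6 h its log2 fold change of 0.0034 (SE 0.026) did not pass, and at 24 h it was lower by -0.63 (SE 0.027). DLGAP5, which stabilises kinetochore fibres, HMMR and NUSAP1, both microtubule-binding, stood at -0.53, -0.44 and -0.26. Of the passenger complex, which corrects wrong attachments, CDCA8 was 125, 127 and 127 CPM in control, 117, 118 and 111 CPM at 6 h, and 77.1, 79.5 and 81.7 CPM at 24 h. BIRC5, survivin, stood at 129.7, 131 and 132 CPM, then 117, 122 and 111 CPM, then 84.6, 83.5 and 87.3 CPM. For both genes the 3 groups were apart in every pair: CDCA8 fell by 0.14 at 6 h and by 0.67 at 24 h (SE 0.034 each), and BIRC5 by 0.17 and 0.62 (SE 0.036 each). Their partners INCENP and AURKB, the scaffold and the kinase, did not pass at 6 h (-0.067 and -0.037) and were lower at 24 h by -0.57 and -0.39. In cytokinesis, PRC1, which bundles midzone microtubules, was 245, 245 and 241 CPM in control, 240.1, 242 and 245 CPM at 6 h, and 165, 166 and 163 CPM at 24 h (-0.56 at 24 h, SE 0.027). RACGAP1 and ANLN, of the central spindle and the contractile ring, stood at -0.52 and -0.49. ECT2, the exchange factor that activates RhoA at the furrow, was 228, 244 and 229 CPM in control, 257, 250.2 and 275 CPM at 6 h, and 202, 195 and 190.2 CPM at 24 h. Its rise of 0.16 at 6 h (SE 0.040, edgeR adjusted p 0.00602) kept its call in 18 of 18 settings outside the shifted scalings, and its value at 24 h was -0.26 (SE 0.040).

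Of the 6 chromosome structure genes, 5 were lower at 24 h, by unequal amounts. TOP2A, the topoisomerase that untangles sister chromatids (chromosome 17, 40388525 to 40417897), stood at 789, 791 and 787 CPM in control, 728, 717 and 751 CPM at 6 h, and 452, 461 and 461 CPM at 24 h. The groups were apart in every pair, with log2 fold changes of -0.11 at 6 h (SE 0.025, edgeR adjusted p 0.00326) and -0.79 at 24 h (SE 0.025, edgeR adjusted p 7.28e-13). MKI67, the surfactant-like coat of mitotic chromosomes and a proliferation marker, was more variable, at 1086, 1123 and 1244 CPM in control, 1146, 1068 and 1295 CPM at 6 h, and 849.6, 821 and 822 CPM at 24 h. It did not pass at 6 h (0.024, SE 0.057) and was lower at 24 h by -0.47 (SE 0.057). The condensin core subunits SMC2 and SMC4 stood at -0.13 (SE 0.038) and -0.18 (SE 0.043) at 24 h, and the condensin I subunit NCAPG at -0.26 (SE 0.030). At 6 h SMC4 did not pass, stayed uncalled in 10 of 18 other settings and was called in the rest. The SMC2 call was lost without control replicate 1 and without 24 h replicate 3 (-0.153 to -0.109 over all left-out libraries). NCAPH, the kleisin of condensin I, stood at 91.8, 94.1 and 91.3 CPM in control, 94.3, 95.6 and 92.6 CPM at 6 h, and 92.7, 92.2 and 94.6 CPM at 24 h. Its groups overlapped, and its log2 fold change at 24 h was 0.011, with a 95% interval of -0.0657 to 0.0879. The difference between NCAPH and NCAPG was not tested.

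**Figure D4:**
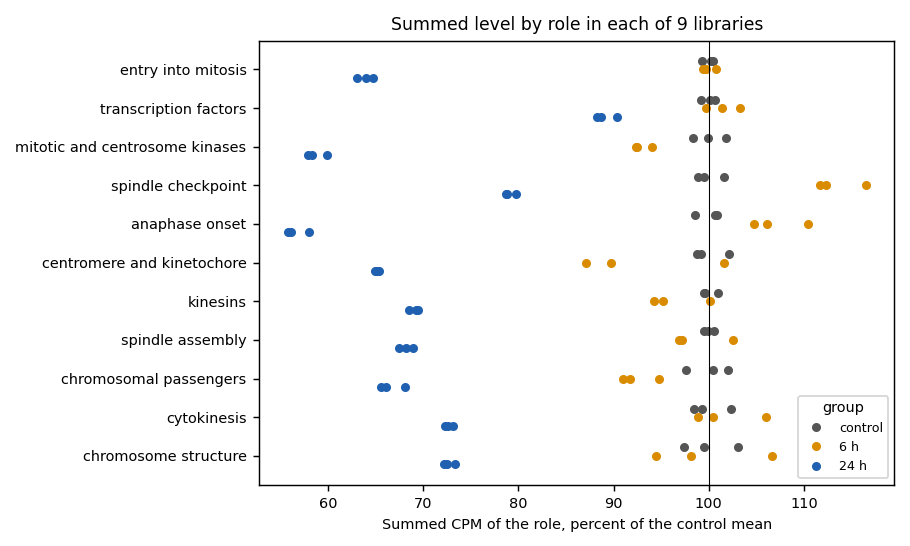
Summed CPM of each of the 11 roles in each library, as percent of that role's control mean, with 1 point per library. In each role the 3 libraries at 24 h lie below all control libraries. At 6 h the sums of the spindle checkpoint and anaphase onset genes lie above them, with 1 of 5 and 2 of 4 genes called higher.

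Summed by role, the anaphase onset genes went from 721 ± 9.33 CPM in control to 772 ± 21.4 CPM at 6 h and 408 ± 8.52 CPM at 24 h (SD, n = 3 libraries per group). The spindle checkpoint genes went from 568 ± 7.96 to 644 ± 14.8 and 449 ± 3.27 CPM. These sums do not stand for each gene at 6 h. Of the 5 checkpoint genes only BUB1 was called higher, and 4 did not pass. Of the 4 anaphase onset genes CDC20 and ESPL1 were called higher, UBE2C was called lower and 1 did not pass. The mitotic and centrosome kinases were below control at both times, at 669 ± 11.8, 622 ± 6.26 and 393 ± 7.12 CPM, and so were the chromosomal passengers, at 449 ± 10.1, 415 ± 8.9 and 299 ± 5.99 CPM. The transcription factors stood nearest to control at 24 h, going from 695 ± 4.88 to 619 ± 7.65 CPM at 24 h. The spread was widest at 6 h, where replicate 3 was the highest of the 3 libraries in 33 of 52 members; the centromere and kinetochore genes had 572 ± 47.7 CPM at 6 h, against 617 ± 11.2 CPM in control. That library was the deepest at 6 h, and whether depth plays a part was not tested; thinning all libraries to 1 total gave 5 members higher and 8 lower at 6 h.

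Of the 17 members called at 6 h, 8 kept their call in all 18 settings outside the library-size-only and uncentred deposited scalings: BUB1, CDC20 and ECT2, which were higher, and AURKA, KIF20A, BIRC5, CDCA8 and TOP2A, which were lower. CCNB2, HMMR and KIF2C, lower by -0.12, -0.10 and -0.090 at 6 h, were called in 4, 4 and 6 of the 18. Leaving out any 1 of 8 libraries ended the calls of CCNB2 (all but 6 h replicate 2, -0.15 to -0.0828) and HMMR (all but 6 h replicate 3, -0.126 to -0.0798), and any 1 of 7 ended that of KIF2C (all but 6 h and 24 h replicate 3, -0.101 to -0.0798). Among these and the other members, smaller overlapping genes were PDZD11 at 34.1% of KIF4A, EXOSC9 at 22.9% of CCNA2, NOSTRIN at 19.7% of SPC25, RHNO1 at 17.5% of FOXM1, AC087721.2 at 12.2% of NUSAP1 and LCORL at 10.8% of NCAPG. At 24 h against control 47 of 49 calls held in all 18, the exceptions being MYBL2 and SMC2, and between the times 47 of 47 did.

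Per kilobase of exon, the order of the levels changed with the treatment. In control UBE2C was highest at 205 CPM per kb, followed by TPX2 at 188, CDC20 at 138, CCNB1 at 128 and TOP2A at 123 CPM per kb, and CDC25C was lowest at 4.69 CPM per kb. At 24 h TPX2 led at 122, followed by UBE2C at 106, MYBL2 at 93.4 and FOXM1 at 73.4 CPM per kb, while CDC20, at 67.9 CPM per kb, was in rank 7. The transcription factors MYBL2 and FOXM1, in ranks 6 and 8 in control, thus stood above cyclin B1 and CDC20 at 24 h. Across the 52 genes the control level and the log2 fold change at 24 h had a Spearman correlation of -0.34, and exon length and the same change had 0.08; these are descriptions across genes of the same libraries, and the level and the change share the control libraries.

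Other genes of the same pathway, were taken as lists of 110 genes that are not among the 52. At 24 h 56 of the 110 were lower, 19 were higher and 35 did not pass, with a median log2 fold change of -0.12, and at 6 h 15 were higher, 15 lower and 80 did not pass. Of other spindle proteins 15 of 16 were lower at 24 h (median -0.41), and of other regulators of mitotic entry 11 of 15 (median -0.26). The anaphase-promoting complex had 3 higher, 7 lower and 7 not passed of 17, and cohesin had 2, 4 and 8 of 14. The subunits of DREAM and MuvB had 4 higher, 2 lower and 5 not passed of 11 at 24 h. Read against the shares of all tested genes, which were 25.3% lower and 24.7% higher at 24 h and 15.4% and 17.5% at 6 h, the 6 h counts and those of cohesin lay near or below the background.

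The wider genes with the largest changes ran in both directions. MASTL, the Greatwall kinase that keeps mitotic phosphorylations in place by restraining PP2A, rose at 6 h from 38.9 ± 1.83 to 117 ± 3.83 CPM (SD, n = 3), and stood at 62.9 ± 1.15 CPM at 24 h, log2 fold changes of 1.60 (SE 0.042, edgeR adjusted p 5.68e-14) and 0.69 (SE 0.043). Its gene overlaps YME1L1 on the other strand, which stood at 290% of its level; SLC31A1 stood at 531% of CDC26, RPL28 at 156% of UBE2S and PBK and CCDC25 at 145% and 59.8% of ESCO2, which they overlap in the same way. CKS1B, a small subunit of CDK complexes, rose by 0.37 at 6 h (SE 0.034) and stood at -0.25 at 24 h (SE 0.034), and CDC26, a subunit of the anaphase-promoting complex, was higher by 0.37 at 6 h (SE 0.091). SPDL1, which recruits dynein to kinetochores, was lower at both times, by -0.35 (SE 0.044) and -0.85 (SE 0.044). At 6 h TFDP2, a partner of E2F proteins, stood at -0.42 (SE 0.066) and MIS18A, a CENPA loading factor, at -0.29 (SE 0.082, lost without control replicate 1, -0.32 to -0.238). At 24 h UBE2S, which extends ubiquitin chains for the anaphase-promoting complex, stood at -0.84 (SE 0.044) and CDCA3, a mitotic entry factor, at -0.83 (SE 0.043), while CENPQ, of the inner kinetochore, was higher by 0.58 (SE 0.096) and ESCO2, the cohesin acetyltransferase of S phase, by 0.53 (SE 0.045). Between the times HJURP, the CENPA chaperone, and SGO2, a protector of cohesin, stood at -0.86 (SE 0.032) and -0.76 (SE 0.044), and RBBP4, a histone-binding subunit of MuvB, at 0.52 (SE 0.036). The larger rises between the times were those of TFDP2, which was lower at 6 h, and ESCO2. TFDP2 stood at 0.79 (0.732 to 0.883 over all left-out libraries) and ESCO2 at 0.58 (0.553 to 0.613).

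**Figure D5:**
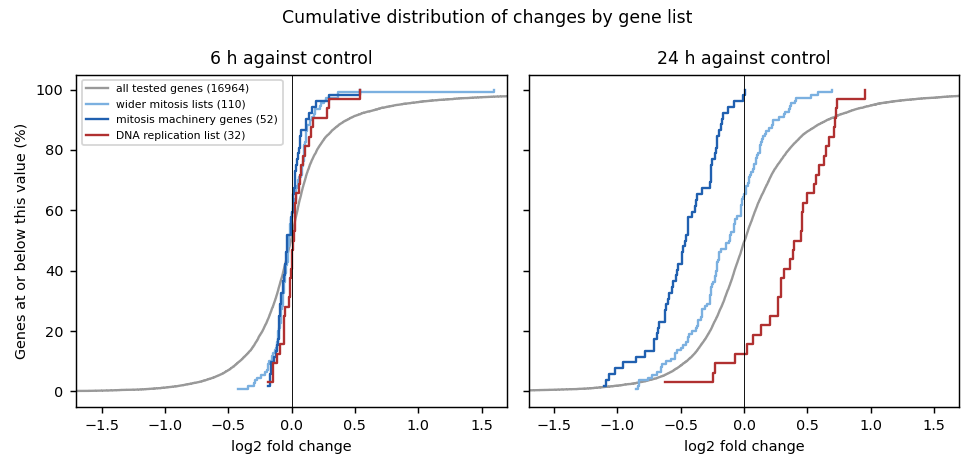
Cumulative percent of genes at or below each log2 fold change, at 6 h (left) and 24 h (right) against control, for all tested genes (16964), the wider mitosis lists (110), the mitosis machinery genes (52) and the DNA replication list (32). At 6 h the curves cross near 0; at 24 h the medians are 0.0048, -0.12, -0.47 and 0.42 in that order.

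Genes of DNA replication, the other large group of cell cycle transcripts, stood on the other side at 24 h: of 32 genes, 26 were higher, 3 lower and 3 not past the threshold, with a median log2 fold change of 0.42, beside the 49 of 52 lower mitosis members and the 24.7% of all tested genes that were higher. At 6 h 6 were higher, 3 lower and 23 did not pass, with a median of 0.012. Of 10 tested inhibitors of the cell cycle, 3 were higher and 4 lower at 24 h, where 24.7% of all tested genes were higher and 25.3% lower.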

How the data were processed

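Total RNA from 9 SUIT2 libraries was sequenced on an Illumina HiSeq 3000, per the labels' protocols. STAR 2.7.8a, Partek and the hg38 build are named in the submitters' processing notes. The annotation and the counting and strand settings were not given in sources used here. Estimated counts per gene, as the authors deposited them, were rounded to whole numbers, and the normalized signal table that the authors deposited served only as an alternative, tested with limma on log2 of the value plus a pseudocount of 1 or 0.1.

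The design had assumed counts. Genes were tested with edgeR 4.0.16 (R 4.3.3): filterByExpr (minimum count 10, minimum total 15), TMM factors, 1 quasi-likelihood model over 9 libraries with 6 residual degrees of freedom, and Benjamini-Hochberg adjustment over 16964 genes at 0.05. Standard errors are the absolute log2 fold change over the square root of F. Intervals of a fold change are at 95%, from these standard errors and a t distribution with the 6 residual degrees of freedom. They leave out the prior degrees of freedom that the test adds, and so are wider than the test. Levels are CPM. Replicates differed by more than sampling noise, and each was 1 sample.

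Members, roles and lists were chosen with earlier results of these data known. Named were members that passed without overlap, up to the 10 largest rises and 10 largest falls per comparison, the 2 with the largest change per role, those called in opposite directions, and the 3 largest rises and falls of the wider lists. Other genes named with values were chosen after their values were seen. Exon lengths came from GENCODE and promoters from RefSeq (GRCh38.p14). Coordinates of genes are those of the deposited tables. Overlapping genes are named where they reached 10% of the gene's level.

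Alternatives were DESeq2 1.42.0, limma-voom (limma 3.58.1), a replicate block, library size only, median-of-ratios factors, fits of the 2 groups compared, no low-count filter and a stricter one, leaving out each library, thinning to 15101664 counts, the deposited normalized table and a threshold of 0.01. Tables and figures were made with Python 3.11.15 and its packages pandas 2.3.3, matplotlib 3.10.9 and numpy 2.4.6.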

Additional observations from a re-analysis of the deposited data

Results flagged for a closer look

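The effects at 6 h and at 24 h differed in 47 of 52 members, by the direct comparison of 24 h with 6 h (edgeR's quasi-likelihood test, adjusted p under 0.05, where 57.2% of all tested genes passed). In 6 of them, chosen for it, the effects against control passed the threshold with opposite signs. The log2 fold change of 24 h against 6 h was -1.02 for BUB1, -1.31 for CDC20, -0.45 for ESPL1, -0.34 for NDC80, -0.57 for KIF18A and -0.42 for ECT2. That choice fixes the sign of these values, and both effects are measured against the same control libraries. The rises at 6 h of BUB1, CDC20 and ECT2 held in 18 of 18 settings outside the shifted scalings, that of KIF18A in 17, ESPL1 in 15 and NDC80 in 9. Thinning ended the KIF18A call, leaving out control replicate 1 or 2 ended the ESPL1 call (0.101 to 0.142 over all left-out libraries), and with library size only ESPL1 stood at -0.0245. The NDC80 call was lost without control replicate 2 or 3, 6 h replicate 3 or 24 h replicate 2 (0.0943 to 0.172). Groups of 3 libraries were not tested for single outlying libraries.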

How the results depend on the processing

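Outside the library-size-only and uncentred deposited scalings, most lost calls were at 6 h, where effects were small. The 24 h calls depend on scaling too. With the deposited table at a pseudocount of 1, 20 members changed sign at 24 h and 24 more lost their call. Members lower at 6 h numbered 11, and 5 at an adjusted p under 0.01, 7 with DESeq2, 6 without a low-count filter, 6 with only the 2 groups compared, 39 with library size only and 0 with the deposited normalized table at either pseudocount. Members higher at 6 h numbered 6, and 3 at an adjusted p under 0.01, 2 with library size only and 2 with the deposited table. Leaving out 1 library gave 5 to 7 higher and 5 to 12 lower at 6 h, 0 higher and 47 to 50 lower at 24 h, and 0 higher and 47 to 48 lower between the times; 5 lower at 6 h came without control replicate 3. Members higher at 24 h numbered 0, and 1 with library size only and 2 with the deposited table, in which 6 were lower. Between the times library size only gave 5 higher, and the deposited table gave 9 lower. The median of all tested genes moved with these scalings, to -0.14, 0.082 and 0.20 with library size only and to 0.13, 0.37 and 0.21 with the deposited table (6 h, 24 h and between the times), whose columns sum to 813335 to 1260040. The cause of this difference in scale was not tested.

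The replicate numbers showed no pairing of the libraries. Correlations of deviations were -0.0615 to 0.0196 for same-numbered libraries and -0.0311 to 0.0754 for the others. These values cannot exclude that same-numbered libraries were set up together. With a replicate block 5 members were higher and 8 lower at 6 h, 48 were lower at 24 h and 47 between the times.

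Sign changes are listed here only for genes called in the main fit or in the alternative setting. Sign changes of genes called in neither are left out. Such log2 fold changes that changed sign with library size only were, at 6 h, CCNA2 -0.11, CDC25B -0.0752, FOXM1 -0.077, ESPL1 -0.0245, KIF23 -0.13, TPX2 -0.14, ANLN -0.13, SMC2 -0.12, NCAPG -0.13 and NCAPH -0.11. Between the times they were CDC25C 0.17, MYBL2 0.18, PLK4 0.17, MAD2L1 0.0456, SPC25 0.13, KIF11 0.0663, SMC2 0.0684 and NCAPH 0.20. With the deposited table at a pseudocount of 1 (and of 0.1 where it differs) they were, at 6 h, CCNB2 0.052 (0.0526), UBE2C 0.0649 (0.0651), KIF2C 0.0751 (0.0755), HMMR 0.0625 (0.063), CDCA8 0.0317 (0.0319), TOP2A 0.0579 (0.058) and RBBP4 0.0515 (0.0517). At 24 h they were CDK1 0.21, CCNA2 0.0642 (0.0647), FOXM1 0.21, MYBL2 0.36, PLK4 0.42 (0.43), BUB1B 0.0267 (0.027), BUB3 0.17, MAD2L1 0.22 (0.23), TTK 0.22, ESPL1 0.10, NDC80 0.24, SPC25 0.18 (0.19), KIF11 0.25, KIF18A 0.0623 (0.064), NUSAP1 0.18, AURKB 0.0465 (0.0473), ECT2 0.18, SMC2 0.31, SMC4 0.26, NCAPG 0.18, MIS18A 0.20 (0.21) and CKS1B 0.18. Between the times they were MAD2L1 0.10 (0.11), TTK 0.0194 (0.0202), KIF11 0.12 (0.13), NUSAP1 0.0275 (0.0281), SMC2 0.13 and NCAPG 0.00534 (0.00548). With each library of that table centred on its median, 4 members were higher and 15 lower at 6 h, 50 lower at 24 h and 47 lower between the times.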
